A study of Macaca mulatta with 16 samples.

Results

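The miR-99/100 and miR-125 families were followed in the developing retina of the rhesus monkey (Macaca mulatta). Members were taken by name: every miRNA of the table that is called miR-99a, miR-99b, miR-100, miR-125a or miR-125b once the species prefix, the arm and any locus suffix are removed. This gave 9 of 339 miRNAs, 4 of them miR-99/100 (miR-99a-5p, miR-99b-5p, miR-99b-3p and miR-100-5p) and 5 of them miR-125 (miR-125a-5p, miR-125a-3p, miR-125b-5p, miR-125b-1-3p and miR-125b-2-3p). All 9 reached the mean of 5 TPM (reads of a miRNA scaled to the size of its library) that was required of a miRNA before it was tested.

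Retina was punched temporal to the optic disc, over the presumptive fovea, and at the matching nasal place, in fetuses of healthy pregnancies with no treatment or altered allele in either group. miRNA was sequenced at 50 days gestational age in 3 temporal and 3 nasal libraries. mRNA was given as 1 mean per region at 50 days and as 1 library per region at 90 and at 150 days. At 50 days a punch reached beyond the foveal anlage, and the labels do not say which samples came from the same animal, so p-values measure only the spread between these samples.

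A miRNA recognises its targets mainly through the seed, a short stretch near its 5′ end. The miR-99a, miR-99b and miR-100 5p arms share one seed, and the miR-125a and miR-125b 5p arms share another, which they have in common with lin-4, a timing gene of the worm Caenorhabditis elegans. In vertebrates the members lie beside let-7 genes in conserved clusters, and miR-125, let-7 and miR-9 are known in mouse for moving retinal progenitors from early to late states, where LIN28 and PRTG are among their targets. In the RefSeq annotation of the rhesus assembly T2T-MMU8v2.0, MIR125B-1, MIRLET7A-2 and MIR100 were consecutive miRNA genes, as were MIR125B-2, MIRLET7C and MIR99A, and MIR99B, MIRLET7E and MIR125A. The last of these clusters lay within SPACA6, and the other clusters lay within LOC106993508 and LOC114676844.

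The summed TPM of a library ran from 178383 to 358430 and was lower in nasal replicates 1 and 3 (178383 and 238494) than in the temporal libraries (309924 to 353553). Each library was therefore divided by its median ratio to the others, and levels are given as rescaled TPM unless deposited TPM is named. Without rescaling, the median log2 difference over all 283 tested miRNAs was 0.52, temporal minus nasal, against 0.01 after it. 1 library per region stood apart. In nasal replicate 2, miR-126, a miRNA of endothelium, reached 494 rescaled TPM against 17.7 to 36.1 in the other 5 libraries, and miR-143-3p of smooth muscle reached 258 against 2.73 to 4.21. In temporal replicate 2, miR-182 of photoreceptors stood at 267 rescaled TPM, against 814 and 979 in the other temporal libraries and 134 to 235 in the nasal libraries. The retina marker mRNAs RAX, PAX6, SIX3, SIX6 and LHX2 each reached 1 CPM (reads of a gene scaled to the size of the library) at 50 days. That bar cannot identify the tissue, since 14254 genes reached it in either region, among them all 8 listed pigment epithelium markers.

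5 of the 9 members were lower on the temporal side and 0 were higher, by limma at an adjusted p of 0.05 over all 283 miRNAs. Of all 283 miRNAs, 14.5% were called lower and 13.4% higher on the temporal side. The 5 were miR-100-5p, miR-125a-3p, miR-125b-1-3p, miR-99b-5p and miR-125a-5p, with fitted folds, nasal over temporal from the mean log2 values, of 3.15, 2.40, 2.35, 1.51 and 1.46. The log2 difference was below 0 for 9 of 9 members, with a median of -0.55, and for 140 of 283 miRNAs, with a median of 0.01. On rescaled values each temporal library lay below each nasal one for 5 of the 9 members and for 60 of all 283 miRNAs. These counts rest on the rescaling, since on deposited TPM 0 members were called by limma, 1 of them (miR-125a-3p) had a p under 0.05 before adjustment, and the members' median was 0.0049. With both tissues taken in bulk, fewer cells that make a miRNA cannot be told apart from less of it per cell.

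**Figure D1:**
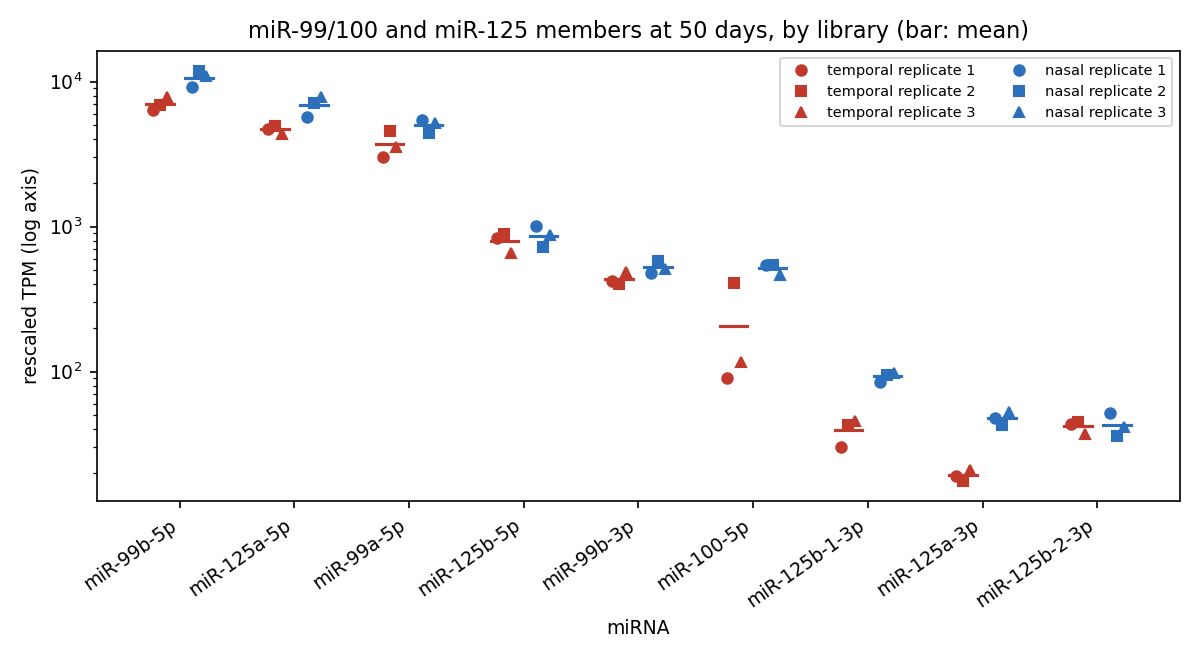
Rescaled TPM of each member (log axis) in the 3 temporal (red) and 3 nasal (blue) libraries at 50 days, where the marker gives the replicate number and the bar the mean. The temporal libraries sit below the nasal ones without overlap for miR-99b-5p, miR-125a-5p, miR-100-5p, miR-125b-1-3p and miR-125a-3p, while temporal replicate 2 of miR-100-5p, at 408 rescaled TPM, is far above the other 2. Of all 283 tested miRNAs, 60 were likewise lower in each temporal than in each nasal library.

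Among the miR-99/100 members, miR-99b-5p was the most abundant and ranked 9 of 339 miRNAs by mean level. It had 6387, 6873 and 7813 rescaled TPM in temporal replicates 1, 2 and 3 and 9129, 11819 and 10887 rescaled TPM in nasal replicates 1, 2 and 3. All temporal libraries lay below all nasal ones. The means were 7025 ± 725 and 10612 ± 1366 rescaled TPM (SD, n = 3 each), and the log2 difference was -0.59 (SE 0.166, 95% interval -0.97 to -0.21, limma adjusted p = 0.0323). The call was lost without any 1 of temporal replicates 1, 2 and 3 or nasal replicates 2 and 3, at limma adjusted p of 0.120, 0.0794, 0.0513, 0.117 and 0.112, and it was kept without nasal replicate 1 (adjusted p = 0.00689). On deposited TPM its libraries ranged from 7017 to 9361 temporal and from 6327 to 13188 nasal, and overlapped.

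The other arm of the same hairpin, miR-99b-3p, is the strand that is usually discarded when the duplex is loaded into Argonaute. Its levels were 421.5, 402.4 and 488.1 rescaled TPM in the temporal libraries and 480.5, 576.2 and 513.3 in the nasal libraries. Temporal replicate 3 lay above nasal replicate 1, so the regions overlapped. The log2 difference was -0.26 (95% interval -0.60 to 0.08, limma adjusted p = 0.227), which did not pass the test.

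miR-99a-5p, which shares a cluster with let-7c and the miR-125b-2 hairpin, had 3034, 4591 and 3553 rescaled TPM in the temporal and 5412, 4406 and 5216 in the nasal libraries. Temporal replicate 2 exceeded nasal replicate 2, and the regions overlapped. The log2 difference of -0.44 (95% interval -0.87 to -0.01) had a limma adjusted p of 0.112.

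miR-100-5p, of the cluster with let-7a-2 and the miR-125b-1 hairpin, was the least abundant 5p member and had the largest log2 difference of the 9. Its levels were 90.1, 407.5 and 117.2 rescaled TPM in temporal replicates 1, 2 and 3 and 546.9, 539.5 and 461.2 in nasal replicates 1, 2 and 3. Temporal replicate 2 stood near the nasal libraries while remaining below each of them, and the other temporal libraries were far lower. Means were 205 ± 176 and 516 ± 47.5 rescaled TPM (SD, n = 3 each), so the temporal SD was close to the temporal mean. The log2 difference was -1.65 (SE 0.487, 95% interval -2.77 to -0.53, limma adjusted p = 0.0373).

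That value of miR-100-5p depended on the library left out and on the processing. It was -2.32 without temporal replicate 2 (limma adjusted p = 0.00175), and the call was lost without temporal replicate 1 (-1.22, adjusted p = 0.154), without temporal replicate 3 (-1.42, adjusted p = 0.123) and without nasal replicate 3 (-1.76, adjusted p = 0.0864). The call was also lost after quantile normalization (-1.39, adjusted p = 0.0940) and with robust eBayes (adjusted p = 0.0619). On deposited TPM, temporal replicate 2 (555) exceeded nasal replicates 1 and 3 (379 and 336), and the regions overlapped.

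Among the miR-125 members, miR-125a-5p led with 4753, 4957 and 4370 rescaled TPM in the temporal and 5751, 7114 and 7847 in the nasal libraries. No temporal library reached a nasal one. The means were 4693 ± 298 and 6904 ± 1063 rescaled TPM (SD, n = 3 each), with a log2 difference of -0.55 (SE 0.164, 95% interval -0.92 to -0.17, limma adjusted p = 0.0387). The call was lost without any 1 of temporal replicates 1, 2 and 3 or nasal replicates 2 and 3 (adjusted p of 0.110, 0.0700, 0.114, 0.115 and 0.140) and after quantile normalization (-0.18, adjusted p = 0.267), and it was also lost with the replicate number as a block (adjusted p = 0.0562). Without nasal replicate 1 the difference was -0.70 (adjusted p = 0.00606).

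Its passenger arm, miR-125a-3p, was the rarest member by mean level on the temporal side. The temporal libraries had 19.1, 17.6 and 21.1 rescaled TPM and the nasal libraries 47.6, 43.0 and 52.2. The gap between the regions was wider than the range within either. The log2 difference was -1.26 (SE 0.187, 95% interval -1.69 to -0.83, limma adjusted p = 0.00413), and the call held without any 1 library, at adjusted p up to 0.0265. In deposited TPM, where values are whole numbers, it stood at 21, 24 and 25 temporal and 33, 48 and 38 nasal, still without overlap.

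The mature miR-125b-5p is made from MIR125B-1 and MIR125B-2, and its 2 hairpins can be told apart only by their 3p arms. miR-125b-5p had 840.2, 889.9 and 662.6 rescaled TPM in the temporal and 1004.3, 718.7 and 870.2 in the nasal libraries. The regions overlapped, and the log2 difference was -0.11 (95% interval -0.53 to 0.30, limma adjusted p = 0.688).

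The 3p arms of the 2 hairpins gave different values. miR-125b-1-3p, of the cluster that holds miR-100, had 30.0, 42.6 and 45.5 rescaled TPM temporal and 85.1, 94.99 and 97.5 nasal. Its regions were separated on the rescaled and on the deposited scale, and its log2 difference was -1.23 (SE 0.208, 95% interval -1.71 to -0.75, limma adjusted p = 0.00556). The call held without any 1 library, at adjusted p up to 0.0303.

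In contrast, miR-125b-2-3p, of the cluster that holds miR-99a, had 43.7, 44.8 and 37.1 rescaled TPM temporal and 51.9, 35.8 and 41.2 nasal. The regions overlapped, with a log2 difference of -0.03 (95% interval -0.50 to 0.45, limma adjusted p = 0.924). On deposited TPM its temporal libraries (48, 61 and 44) lay above its nasal libraries (36, 40 and 30), so its direction turned with the scaling.

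**Figure D2:**
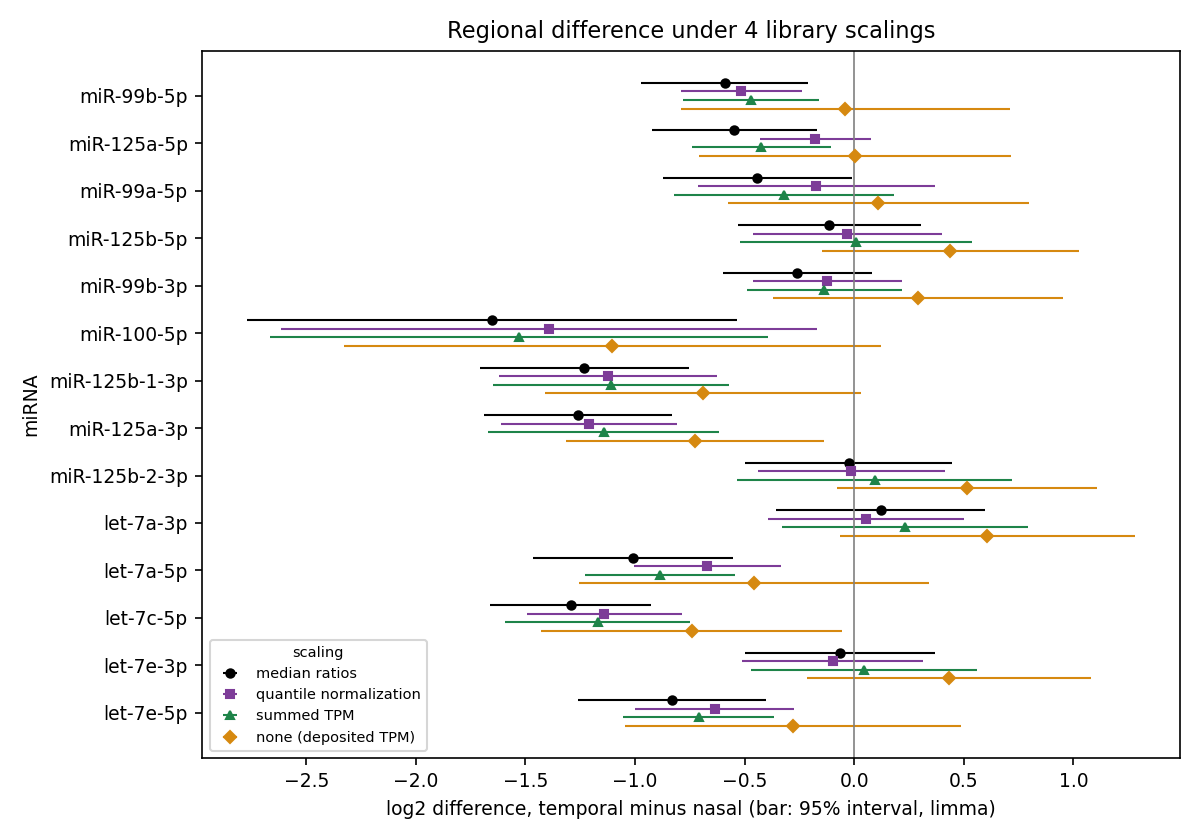
log2 difference, temporal minus nasal, with its 95% interval from limma for each member and each let-7 arm of the clusters, under 4 ways of scaling the libraries. Deposited TPM moves every value to the right, and there the intervals of miR-125a-3p (-0.73) and let-7c-5p (-0.74) alone stay below 0.

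Deposited TPM moved all members by about the same amount, as it did the median of all miRNAs. Under it miR-125a-3p (-0.73, limma adjusted p = 0.0572), miR-125b-1-3p (-0.69, adjusted p = 0.130) and miR-100-5p (-1.10, adjusted p = 0.149) stayed below 0 without a call. miR-125a-5p, miR-99a-5p, miR-99b-3p, miR-125b-5p and miR-125b-2-3p turned above 0 (0.0049, 0.11, 0.29, 0.44 and 0.51). Among all miRNAs the calls went from 41 lower and 38 higher to 3 lower and 77 higher. Dividing by the summed TPM of each library, an alternative chosen after seeing the data, left the same 5 members called, at adjusted p of 0.01004 to 0.0498, while miR-125b-5p and miR-125b-2-3p stood at 0.0081 and 0.09.

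Ranked by level within a region, the members kept nearly one order. On the temporal side miR-99b-5p was followed by miR-125a-5p and miR-99a-5p, whose ranges overlapped, then by miR-125b-5p, by miR-99b-3p and miR-100-5p, which overlapped, by miR-125b-2-3p and miR-125b-1-3p, which overlapped, and by miR-125a-3p. On the nasal side miR-99b-5p, miR-125a-5p, miR-99a-5p and miR-125b-5p followed each other without overlap. Below them miR-99b-3p and miR-100-5p overlapped, miR-125b-1-3p stood alone, and miR-125a-3p and miR-125b-2-3p overlapped. miR-125a-3p was thus last by mean on the temporal side and level with miR-125b-2-3p on the nasal side.

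Since members of a family share a seed, their 5p arms were also summed per library. The miR-99/100 sum was 9511, 11871 and 11483 rescaled TPM in the temporal and 15089, 16764 and 16564 in the nasal libraries. It was lower in all temporal than in all nasal libraries, by a difference in mean log2 of -0.56, a fold of 1.48. The two-sided exact permutation p was 0.10, the smallest that 3 against 3 libraries can give. As a share of the library's summed TPM, which is another scaling of the same values, the family took 3.37, 4.57 and 4.01% temporal and 5.86, 5.22 and 5.06% nasal, again without overlap.

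The miR-125 sum was smaller and showed the same order of regions. It was 5594, 5847 and 5033 rescaled TPM temporal and 6756, 7832 and 8717 nasal, with a log2 difference of -0.50 and a two-sided exact permutation p of 0.10. The shares of the library were 1.98, 2.25 and 1.76% temporal and 2.62, 2.44 and 2.66% nasal, and the regions did not overlap. Sums of deposited TPM overlapped for both families, with log2 differences of -0.01 for miR-99/100 (exact permutation p = 0.90) and 0.06 for miR-125 (exact permutation p = 1).

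**Figure D3:**
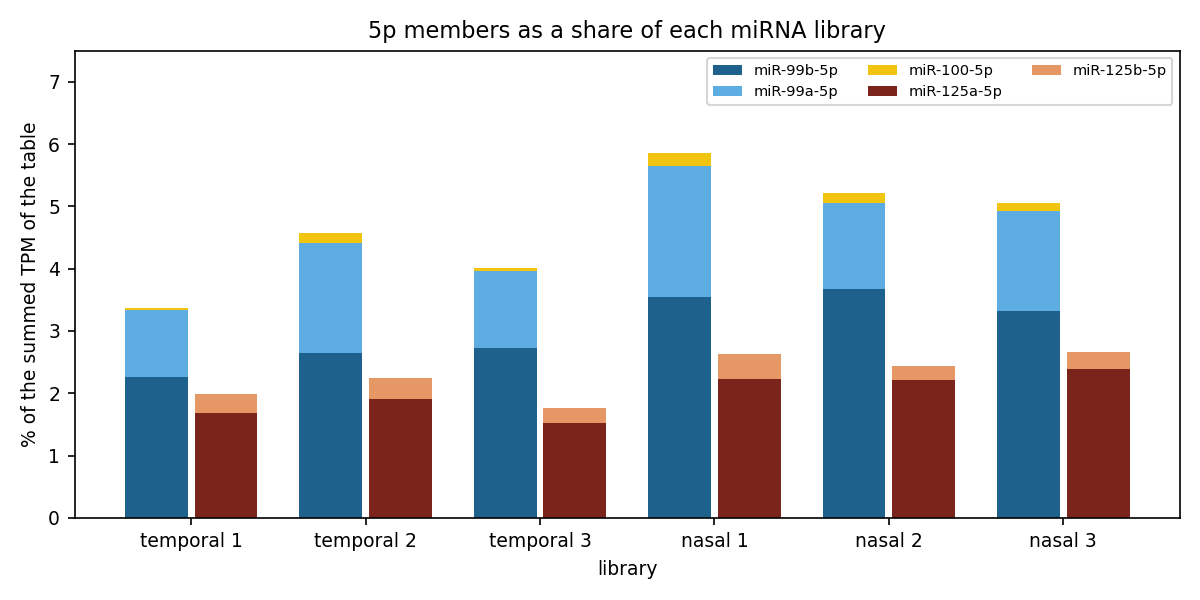
Share of each library's summed TPM (percent) taken by the 5p members, stacked within miR-99/100 (left bar: miR-99b, miR-99a, miR-100) and miR-125 (right bar: miR-125a, miR-125b). Both bars are lower in each temporal library (up to 4.57 and 2.25%) than in each nasal library (from 5.06 and 2.44%).

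Within a family the make-up of the sum overlapped between regions. Among the miR-99/100 5p arms, miR-99b made up 64.4 ± 5.62% of the temporal and 65.6 ± 4.998% of the nasal sum (SD, n = 3 each), and miR-99a made up 33.8 ± 4.21 and 31.2 ± 4.80%. miR-100 made up 0.947, 3.43 and 1.02% in the temporal and 3.62, 3.22 and 2.78% in the nasal libraries. miR-100 was thus a small part of the family sum in each library. Within miR-125, miR-125b made up 14.5 ± 1.13% temporal and 11.3 ± 3.08% nasal, and miR-125a the rest.

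Both arms of a hairpin come from the same precursor and are measured in the same library. Scaling therefore cancels in their log2 difference, apart from the 1 added to each level, which weighs more on a rare arm. For miR-125a, the 5p arm exceeded the 3p arm by 7.88, 8.06 and 7.63 on the log2 scale in the temporal and by 6.89, 7.34 and 7.21 in the nasal libraries. Every temporal value was above every nasal one, and the difference between regions was 0.71 (SE 0.220, 95% interval 0.25 to 1.18, limma adjusted p = 0.0120 over 62 hairpins). Of those 62 hairpins 50.0% were called. The call was lost without temporal replicate 2 (0.61, adjusted p = 0.0706). With 5 in place of 1 added to each level, the difference was 0.57 (limma adjusted p = 0.0193).

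For miR-99b, which lies in the same cluster as miR-125a, the values lay in the other order. The 5p arm exceeded the 3p arm by 3.92, 4.09 and 3.998 temporal and by 4.25, 4.36 and 4.404 nasal, without overlap. The difference of -0.33 (95% interval -0.76 to 0.10, limma adjusted p = 0.184) did not pass the test.

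The let-7 miRNAs of the clusters, which act late in development and repress genes such as HMGA2 and LIN28, were measured in the same libraries. let-7c-5p had 455.1, 624.9 and 486.4 rescaled TPM temporal and 1193, 1284 and 1333 nasal, a log2 difference of -1.29 (limma adjusted p = 0.00199). let-7a-5p, which is also made from loci outside these clusters, had 3707, 4061 and 3723 against 5750, 9017 and 8819 rescaled TPM, a log2 difference of -1.01 (limma adjusted p = 0.00876). let-7e-5p had 1122, 1259 and 1259 against 1656, 2546 and 2383 rescaled TPM, a log2 difference of -0.83 (limma adjusted p = 0.0152). On the rescaled values these 3 arms were lower on the temporal side without overlap. On deposited TPM each of them overlapped between regions and lost its call, at -0.74 for let-7c-5p (adjusted p = 0.0908), -0.46 for let-7a-5p (adjusted p = 0.339) and -0.28 for let-7e-5p (adjusted p = 0.544). The let-7e-5p call was lost without temporal replicate 1 (adjusted p = 0.0628) and without nasal replicate 3 (adjusted p = 0.0655). The 3p arms let-7a-3p (0.12, adjusted p = 0.703) and let-7e-3p (-0.07, adjusted p = 0.835) did not pass the test.

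Pairs were then compared within a library, 13 of them fixed by seed or cluster and 2 added after the values were seen. 5 of the 13 fixed pairs did not overlap between regions, each with a two-sided exact permutation p of 0.10, the smallest possible. Also 5 had a 95% interval that left out 0, but these were not the same 5. miR-99a-5p against miR-125b-5p met the first condition alone, and miR-100-5p against miR-99a-5p met the second alone. No adjustment over the pairs was made for the intervals, and no background over other pairs of miRNAs was computed. The 2 added pairs are a description only, since they were chosen for their values.

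In the miR-99b cluster the ratios between neighbours overlapped between regions. The difference between regions was 0.24 (95% interval -0.19 to 0.67) for miR-99b-5p over let-7e-5p and 0.29 (-0.17 to 0.74) for miR-125a-5p over let-7e-5p, with overlapping libraries. For miR-99b-5p over miR-125a-5p it was -0.05 (-0.52 to 0.43), with ratios of 1.49 temporal and 1.54 nasal. These intervals still allow differences of about the size that the members themselves showed.

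In the miR-99a cluster the members stood apart from let-7c. By geometric mean, miR-99a-5p was 7.09 times let-7c-5p on the temporal and 3.93 times on the nasal side, with log2 ratios of 2.73, 2.87 and 2.87 temporal and 2.18, 1.78 and 1.97 nasal. Temporal values were all above nasal ones, by 0.85 (95% interval 0.40 to 1.30). miR-125b-5p was 1.53 times let-7c-5p temporal and 0.675 times nasal, a difference of 1.18 (0.62 to 1.73). miR-99a-5p against miR-125b-5p differed by -0.33 (-0.85 to 0.19), with all temporal libraries below all nasal ones.

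In the miR-100 cluster the values of miR-100-5p were split by temporal replicate 2. Against miR-125b-5p its log2 ratio was -3.21, -1.12 and -2.49 temporal and -0.88, -0.41 and -0.92 nasal. The temporal libraries were all lower, by -1.54 (95% interval -2.74 to -0.34), although the interval took in 0 without temporal replicate 3 (-1.43), nasal replicate 1 (-1.61) or nasal replicate 2 (-1.38). Against let-7a-5p it differed by -0.64 (-1.92 to 0.64) with overlap, and by -1.26, with an interval that left out 0, without temporal replicate 2. miR-125b-5p over let-7a-5p was higher temporal in all libraries, by 0.90 (0.15 to 1.64), and its interval took in 0 without temporal replicate 1 (0.83), nasal replicate 2 (0.66) or nasal replicate 3 (0.81).

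**Figure D4:**
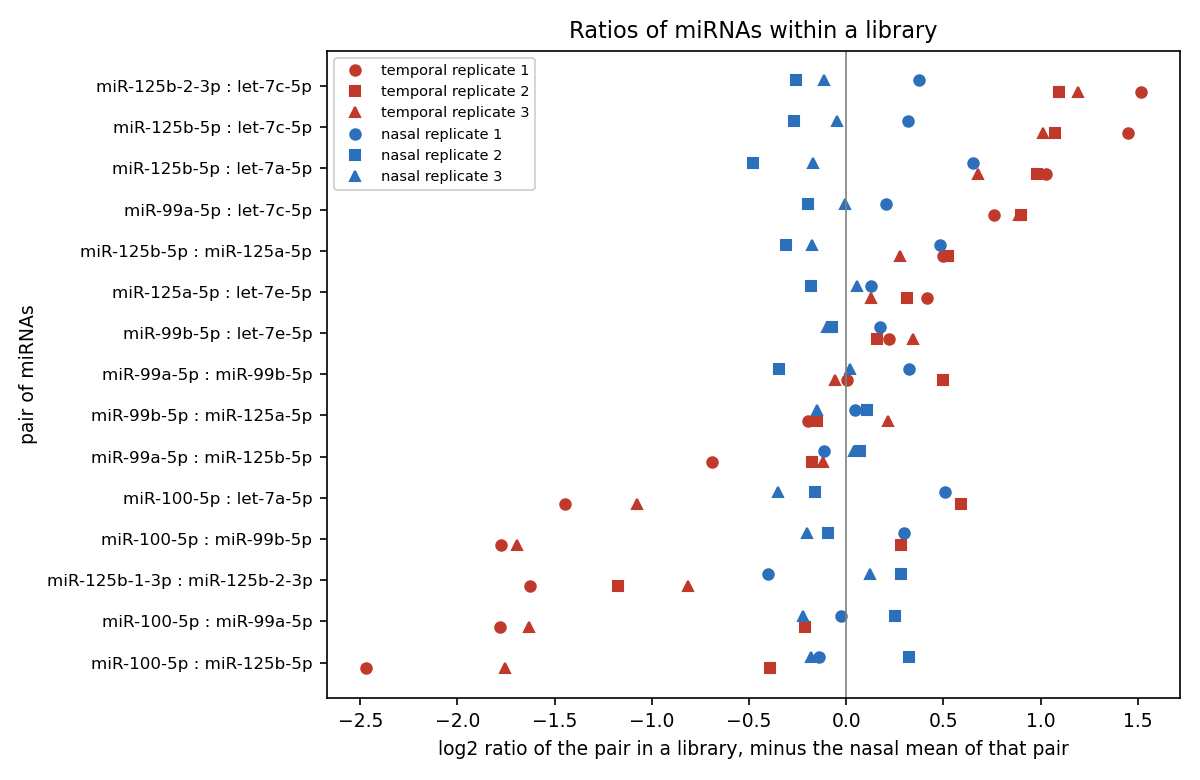
log2 ratio of each pair of miRNAs in each library (marker: replicate), minus the nasal mean of that pair, for 15 pairs. Ratios of miR-125b-2-3p, miR-125b-5p and miR-99a-5p to let-7c-5p lie higher in all temporal libraries, and for ratios with miR-100-5p temporal replicate 2 lies apart from the other temporal libraries.

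Between members of 1 seed family the regions overlapped for every pair of 5p arms. miR-100-5p against miR-99a-5p differed by -1.21 (95% interval -2.22 to -0.20, exact permutation p = 0.20), and the interval took in 0 without temporal replicate 1 (-0.92), temporal replicate 3 (-0.998), nasal replicate 1 (-1.22) or nasal replicate 2 (-1.09). miR-100-5p against miR-99b-5p differed by -1.06 (-2.36 to 0.24, exact permutation p = 0.30), and by -1.73 with an interval that left out 0 without temporal replicate 2. miR-99a-5p against miR-99b-5p differed by 0.15 (-0.46 to 0.76). miR-125b-5p against miR-125a-5p differed by 0.43 (-0.17 to 1.04), and by 0.67, with an interval that left out 0, without nasal replicate 1.

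The pair of 3p arms from the miR-125b hairpins was added after its values were seen. miR-125b-1-3p against miR-125b-2-3p had log2 ratios of -0.53, -0.07 and 0.29 temporal and 0.70, 1.38 and 1.22 nasal. The geometric mean ratio was 0.931 temporal and 2.15 nasal, a difference of -1.21 (95% interval -1.89 to -0.52). The other added pair, miR-125b-2-3p over let-7c-5p of the same cluster, was higher temporal in all libraries, by 1.27 (0.70 to 1.84).

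By likeness of pattern, miRNAs of at least 50 mean TPM were ranked by Pearson correlation of log2 levels with each 5p member over the 6 libraries, which share their scaling and the regional difference. For miR-100-5p the nearest were miR-204-5p (0.937), miR-99a-5p (0.933) and miR-216b (0.898). For miR-99b-5p they were miR-128a-3p (0.983), let-7e-5p (0.978) and miR-423-5p (0.977), and for miR-125a-5p let-7a-5p (0.980), miR-320a (0.962) and miR-6529-3p (0.956). For miR-99a-5p they were miR-433-3p (0.970), miR-382-5p (0.957) and miR-1247-5p (0.938). miR-125b-5p was nearest to miR-146b-5p (0.967), miR-26a-5p (0.915) and miR-411-5p (0.808). With let-7e-5p near miR-99b-5p, 1 of the 5 members had a cluster partner among its nearest 3.

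Among miRNAs listed for other cells, miR-204-3p and miR-486-5p were called lower on the temporal side, as were 5 of the 9 members. miR-126, miR-143-3p, miR-1-3p, miR-211 and miR-204-5p were tested and not called. The miRNAs listed for the pigment epithelium, miR-204 and miR-211, summed to 5246 to 7284 rescaled TPM temporal and 8025 to 8929 nasal. Among them miR-204-3p was the 1 of 3 arms that passed the test (limma adjusted p = 0.00711). The paper states that the pigment epithelium was removed at dissection, and whether these miRNAs came from it was not tested. miR-204-5p had 5567, 7155 and 5135 rescaled TPM temporal and 7873, 7912 and 8709 nasal (limma adjusted p = 0.0731), and temporal replicate 2 was the highest temporal library for it as for miR-100-5p. The red cell miRNA miR-486-5p had 41.9, 35.2 and 48.1 against 59.2, 106.6 and 93.3 rescaled TPM (adjusted p = 0.0248). The striated muscle miRNA miR-1-3p summed to 64.9 to 94.7 temporal and 42.5 to 99.5 nasal. Of 6 miRNAs listed for neurons and retina, 3 were called higher temporal, against 13.4% of all miRNAs. They were miR-182, miR-96 and miR-9-3p (limma adjusted p of 0.0248, 0.0355 and 0.0302). miR-183-5p, miR-9-5p and miR-124a-3p were not called (limma adjusted p of 0.0899, 0.0743 and 0.549). The list summed to 16369 to 25649 rescaled TPM temporal and 11914 to 16103 nasal. Most of that was miR-9-5p, at 15551 to 23617 temporal and 11236 to 15455 nasal. The part of these cells in the differences of the members was not tested. Without temporal replicate 2, and likewise without nasal replicate 2, 3 members were called lower, namely miR-100-5p, miR-125a-3p and miR-125b-1-3p.

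For mRNA, host genes, the LIN28 and let-7 axis and genes reported elsewhere as targets were read from the 28633 rows of the gene table. At 50 days only the authors' mean per region was given, so no spread is known, and at 90 and 150 days 1 library per region gave no replicate check. SPACA6, the host of the miR-99b cluster, stood, by the authors' means at 50 days, at 3.34 CPM temporal and 5.02 CPM nasal, with nasal at 1.504 times temporal. It stood at 1.62 and 1.27 CPM at 90 days and at 1.25 and 2.10 CPM at 150 days. The 150-day ratio of 0.598, temporal over nasal, had a 95% counting interval of 0.343 to 1.02. MIR99AHG and MIR100HG, hosts in human of the other clusters, were not analysed here.

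LIN28A, which blocks let-7 maturation in stem cells, was listed at 0 in each column. Its paralog LIN28B was low, at 3.07 CPM temporal and 3.00 nasal at 50 days, and 0.809 against 0.988 CPM and 1.69 against 2.44 CPM at 90 and 150 days. PRTG, a receptor of early progenitors and a miR-125 and let-7 target in mouse retina, showed nearly equal means of 73.7 and 73.5 CPM at 50 days. TRIM71, a ubiquitin ligase and the homolog of the worm let-7 target lin-41, had 8.10 CPM temporal and 15.6 nasal at 50 days. It had 14.5 and 17.8 CPM at 90 days and 3.76 and 3.79 CPM at 150 days. Other genes of the axis were close to level at 50 days, such as IGF2BP1, an RNA-binding protein of fetal tissue and a let-7 target, at 168 and 169 CPM, and ZCCHC11, an enzyme that tails the let-7 precursor with uridine, at 815 and 745 CPM.

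The lists were set beside all genes by size of difference at 50 days. Of the genes of at least 1 CPM in either region, 0 of 11 in the LIN28 and let-7 axis, 0 of 8 miR-99/100 targets and 0 of 13 miR-125 targets differed 2-fold on the log2(CPM + 1) scale, which understates differences of low genes. Over all 14254 such genes, 0.189% were 2-fold higher temporal and 1.00% 2-fold higher nasal. At these shares a list of 8 to 13 genes would seldom hold a 2-fold gene. The counts of 0 therefore cannot show whether the lists differ from other genes. The median log2 ratios, temporal over nasal, were 0.02, -0.09 and -0.07 for the lists and -0.02 for all genes.

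Among miR-99/100 targets, the growth kinase MTOR had 229 and 269 CPM and its upstream receptor IGF1R 184 and 206.2 CPM, temporal and nasal, at 50 days. AKT1, a kinase of the same pathway, had 36.4 and 56.2 CPM, with nasal at 1.54 times temporal. SMARCA5, a chromatin remodelling ATPase, had 731 and 602 CPM, with temporal at 1.22 times nasal. Thus 3 of the 8 had ratios above 0 on the log2 scale and 5 below. The median of all genes was also below 0, at -0.02, and their split by sign was not computed.

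For miR-125 targets the counts at 50 days were 4 above and 9 below, likewise without the split of all genes beside them. The receptor tyrosine kinase ERBB2 had 8.82 CPM temporal and 18.3 nasal at 50 days, 35.7 and 40.7 CPM at 90 days and 41.0 and 37.1 CPM at 150 days. PRDM1, which in mouse directs photoreceptor precursors away from bipolar fate, had 228 CPM temporal and 167 nasal at 50 days. It had 184 and 248 CPM at 90 days, a ratio of 0.740 (95% counting interval 0.710 to 0.772), and 52.5 and 142 CPM at 150 days, a ratio of 0.369 (0.343 to 0.397). The side with the higher PRDM1 value thus changed after 50 days in these libraries.

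**Figure D5:**
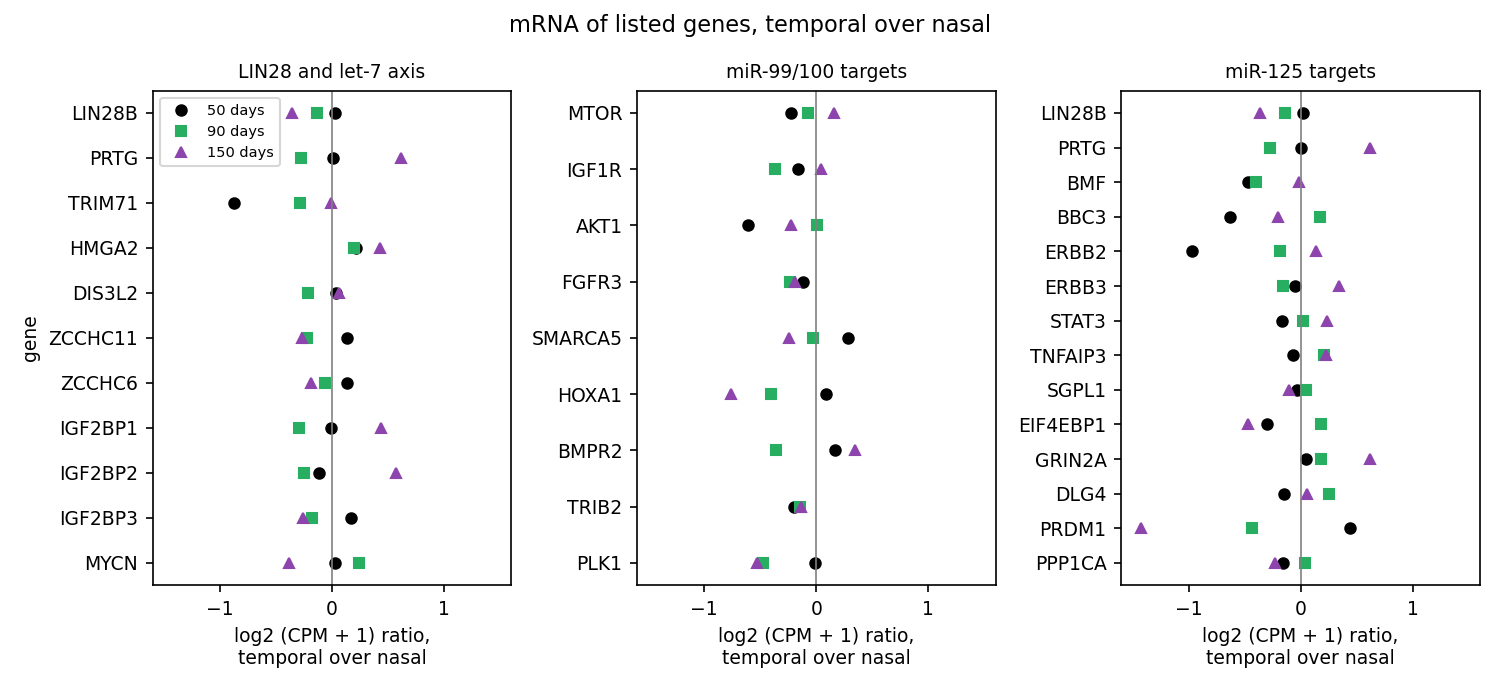
log2 ratio of CPM + 1, temporal over nasal, for listed genes of the LIN28 and let-7 axis and of reported targets at 50 days (authors' means) and at 90 and 150 days (1 library per region). At 50 days most points lie near 0 with TRIM71 (-0.87) and ERBB2 (-0.97) lowest, and at 150 days PRDM1 (-1.42) is lowest.

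At the later ages the list medians were again below 0.3 in size. At 90 days the medians were -0.22 for the LIN28 and let-7 axis, -0.24 for miR-99/100 targets and 0.04 for miR-125 targets, against 0.02 over 14012 genes. At 150 days they were -0.10, -0.19 and 0.02, against -0.04 over 14307 genes, and 1 of 14 miR-125 targets, PRDM1, was 2-fold higher nasal, against 1.09% of all genes. An edgeR quasi-likelihood test with age as a term was run on the reads at both ages. It called 0 of 15102 genes (lowest adjusted p = 0.0735), and 1378 had a p under 0.05 before adjustment. Each age had 1 library per region, so the ages stood in for replicates of a region. The lack of calls therefore does not show that the regions were alike.

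In the same mRNA data, markers of mesenchyme were lower on the temporal side by the authors' means at 50 days. All 4 that reached 1 CPM (COL1A1, COL3A1, LUM and DCN) were at least 2-fold higher nasal, against 1.00% of all genes. Each of the 4 reached 1 CPM on the nasal side only. The filter thus favoured a higher nasal value, and the count is a description only. Their list summed to 1.88 CPM temporal and 26.1 nasal, and COL3A1, a fibrillar collagen, was listed at 0 temporal and at 13.6 CPM nasal. The paper states that the miRNA libraries came from the RNA-seq samples, and nasal replicate 2 alone was high in miR-143-3p (258 rescaled TPM) and miR-126 (494). Whether 1 sample made the nasal mRNA means was not tested, since no values per sample were given. Endothelial markers had a median log2 ratio of -0.55, with CDH5, a junction protein, listed at 0 temporal and at 1.24 CPM nasal. Of those in the median, CDH5 and PECAM1 reached 1 CPM on the nasal side only. The sum of the endothelial list ran the other way, at 859 CPM temporal and 592 nasal. KDR, a VEGF receptor, made up 854 and 582 CPM of it. Pigment epithelium markers had a median log2 ratio of -0.14, with 3 above 0 and 5 below, and summed to 64.7 CPM temporal and 78.9 nasal. DCT was the largest part of that sum, at 31.4 and 30.7 CPM. TYRP1, which reached 1 CPM on the nasal side only, had 0.172 CPM temporal and 2.70 nasal, and PMEL 12.8 and 23.8 CPM. HBG2, the 1 red cell marker that reached 1 CPM, did so on the nasal side only, with 0.320 CPM temporal and 5.92 nasal. The part of these cells in the members' differences was not tested.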

How the data were processed

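Members, lists and tests were chosen with earlier results of these data known. For miRNA, the deposited values per library were TPM that the authors rounded to whole numbers after mapping reads to miRBase, and were treated as a score; for that step no program or genome build is given in the sources used. For mRNA, the deposited values at 90 and 150 days were CPM, and at 50 days a signal column, the authors' mean per region on the CPM scale, from ribosome-depleted RNA aligned with Bowtie2 and Tophat to Mmul_1. Columns of the authors' own log2 fold changes and p-values, from edgeR per the labels, were not used.

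Libraries were rescaled by median ratios, and log2(value + 1) was fitted in R 4.3.3 by limma 3.58.1, with trended eBayes, over 283 miRNAs of at least 5 mean TPM, with Benjamini-Hochberg adjustment, two-sided, at 0.05. Arms and pairs were fitted as differences within a library. The adjustment over pairs that had been planned was not made; intervals and exact permutation p are given. The paper gives only a mean read number for the miRNA samples, so the depth of each library is unknown. No 2 libraries held identical values. Deviations of same-numbered temporal and nasal libraries from their regional means had correlations of 0.50, 0.16 and 0.12. Differently numbered libraries were not compared, so these values do not show a pairing. A fit with a replicate block was read as an alternative, for a possible pairing.

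CPM at 90 and 150 days gave whole reads in 100% of values within 0.01 reads, 17429349 to 19851990 per library. Their ratios have exact 95% intervals for counting error only, and edgeR 4.0.16 was run on those reads as an alternative. Named miRNAs were all members, the let-7 arms of their clusters and the 3 nearest miRNAs by correlation, and named genes came from the listed hosts, axis, targets and markers. RPTOR has 2 rows and was given no value, and a listed retina marker is not reported here. Alternatives varied scaling, pseudocount, filter, variance model, block and libraries. Scripts were tested on simulated data. Other tools were SciPy 1.17.1, pandas 2.3.3, NumPy 2.4.6 and, for plots, Matplotlib 3.10.9, under Python 3.11.15.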

Additional observations from a re-analysis of the deposited data

How the results depend on the processing

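Scaling and single libraries moved the counts. Of members, 5 were lower temporal in the reported fit, 0 on deposited TPM, 3 after quantile normalization and 2 to 5 with 1 library left out. Of all miRNAs, 41 became 3 on deposited TPM (22 to 63 with 1 library left out) for lower calls, and 38 became 77 on deposited TPM and 25 at a filter of 50 mean TPM (12 to 48 with 1 library left out) for higher calls. On deposited TPM the family sums differed by -0.012 (miR-99/100) and 0.056 (miR-125), and values turned above 0 for miR-125a-5p (0.0049), miR-125b-2-3p (0.51), miR-125b-5p (0.44), miR-99a-5p (0.11), miR-99b-3p (0.29) and let-7e-3p (0.43). Scaled to summed TPM, miR-125b-2-3p (0.093), miR-125b-5p (0.0081) and let-7e-3p (0.045) were above 0. With 1 library left out, ranges that crossed 0 were -0.16 to 0.094 for miR-125b-2-3p, -0.25 to 0.016 for miR-125b-5p, -0.0011 to 0.28 for let-7a-3p, -0.15 to 0.0075 for let-7e-3p, -0.026 to 0.31 for miR-99a-5p over miR-99b-5p and -0.17 to 0.031 for miR-99b-5p over miR-125a-5p. The regional difference in the miR-125a arms ranged from 0.59 to 0.83 with 1 library left out, and its call was lost without temporal replicate 2. Leaving out a library also leaves fewer samples; the cause of the other changes was not tested. With a replicate block 4 members were lower temporal (47 miRNAs lower and 40 higher), the call of miR-125a-5p was lost, and no other call of a member, a let-7 arm, a hairpin or a pair changed. Rounding to whole TPM limits the precision of the 3p arms near 20 TPM.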
